A study of Mus musculus with 4 samples.

Results

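Caveolins and cavins are the proteins that build caveolae, the small flask-shaped pits of the plasma membrane. The 5 genes Cav1, Cav2, Cavin1, Cavin2 and Cavin3 were taken by name, 5 of the 13478 genes that stood in both deposited gene tables. They were chosen by name with the IP over input ratios of these same libraries already known, so their values are a description and none of them was tested. The RNA came from mouse cells labelled as a line of pancreatic cancer-associated fibroblasts (CAFs, 15376CAFs) that overexpressed Flag-tagged Lin28b. The cells carried either the wild-type protein or a mutant deficient in RNA binding, which gives the level of recovery against which the wild type is read. RNA recovered with an anti-Flag antibody (the IP) was sequenced beside the RNA of the lysate (the input). The 4 libraries, 1 per group, were an IP and its input for the wild type and an IP and its input for the mutant. All groups thus carried overexpressed Flag-Lin28b, and neither cells without it nor an IP with another antibody was analysed here. The promoter, the number of clones and the amount of each protein are not given in the sources used here.

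Lin28b is an RNA-binding protein that holds back the maturation of let-7 microRNAs and also contacts many mRNAs. Caveolae form when caveolins, which sit in the membrane as a hairpin, assemble with a peripheral coat of cavins. Caveolin-1 and cavin-1 are both needed for caveolae outside muscle, while the other members adjust the shape, number and movement of the pits. Fibroblasts, endothelial cells, adipocytes and muscle cells are known for their many caveolae.

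With wild-type Lin28b, the RNAs of both caveolins were recovered above their input and those of the cavins were not. Cav2 was 3.60-fold and Cav1 2.29-fold higher in the wild-type IP than in the wild-type input, whereas Cavin1 and Cavin2 lay below their input by less than 2-fold and Cavin3 was 5.56-fold lower. With the mutant, no member reached 2-fold above input, and Cav1 was 2.02-fold lower in the IP. Both caveolins had a higher ratio of IP over input with the wild type than with the mutant, and for the 3 cavins the constructs lay closer together, for Cavin3 not once genes of like span were the yardstick. With 1 library in each group, no difference has a replicate check, and 2-fold in either direction was the mark for calling a gene higher or lower. Levels are in FPKM, fragments scaled to transcript length and library size, on which genes can be set against each other. The authors' levels were used as given for each construct, without rescaling between the constructs, which limits levels set across the constructs.

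Cav1, on chromosome 6 (6:17306335-17341452, plus strand, build GRCm38), encodes caveolin-1, the main structural protein of caveolae outside muscle. Its RNA stood at 166 FPKM in the wild-type IP against 72.6 in its input, and at 50.7 in the mutant IP against 102 in its input. The wild-type IP was thus the highest of the 4 libraries and the mutant IP the lowest. The log2 ratio of IP over input was 1.19 with the wild type and −1.02 with the mutant, a difference of 2.21. Of all genes in the wild-type table, 93.8% had a lower ratio, and of all genes in the mutant table, 37.3% did. The mutant value lies just past the 2-fold mark and ceased to be called once each table was centred on its median, as given below.

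Cav2 encodes caveolin-2, which joins caveolin-1 in mixed oligomers. It is the upstream neighbour of Cav1 on the same strand (6:17281185-17289115), 17.2 kb away, and no other gene of either table overlapped the span of any of the 5 members. Its RNA stood at 115 FPKM in the wild-type IP against 31.9 in its input, and at 37.2 in the mutant IP against 34.2 in its input. The wild-type IP stood apart from the other 3 libraries, which lay between 31.9 and 37.2 FPKM. The log2 ratios were 1.85 with the wild type and 0.12 with the mutant, a difference of 1.73, and 97.2% and 74.5% of genes had lower ones. Split into its 2 sides, wild type over mutant, the Cav2 difference holds 1.63 on the log2 scale between the IPs and −0.10 between the inputs. For Cav1 these were 1.71 and −0.50, the mutant input being 1.41-fold higher. No offset between the constructs was removed from these splits. Summed over all genes, the IP levels were 286718 with the wild type and 207301 with the mutant, and the input levels 321238 and 313359.

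Cavin1 (11:100956733-100970887, minus strand), formerly Ptrf, encodes the cavin that forms the core of the coat and is needed for caveolae to form. It was the most abundant member in both inputs. The RNA stood at 164 FPKM in the wild-type IP against 219.6 in its input, and at 148 in the mutant IP against 168 in its input. Its log2 ratios of −0.42 with the wild type and −0.18 with the mutant were both near 0, with the IP below the input each time.

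Cavin2 (1:51289126-51302960, plus strand), formerly Sdpr, encodes a phosphatidylserine-binding cavin that promotes membrane curvature. It stood at 10.9 FPKM in the wild-type IP against 13.9 in its input, and at 14.8 in the mutant IP against 23.9 in its input. Both IPs lay below their inputs, with log2 ratios of −0.35 and −0.69.

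Cavin3 (7:105480083-105482300, minus strand), formerly Prkcdbp, encodes a cavin known as a binding protein of protein kinase C delta. This member was called lower in both IPs. It stood at 4.11 FPKM in the wild-type IP against 22.9 in its input, and at 2.78 in the mutant IP against 10.5 in its input. The log2 ratio was −2.48 with the wild type, where 4.55% of genes had a lower one, and −1.92 with the mutant, where 17.7% did. Its inputs differed by 2.17-fold, with the wild type higher, the widest gap between inputs among the members. A lower input level can reflect fewer cells that express a gene or less RNA per cell, and these cannot be told apart in bulk RNA.

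**Figure D1:**
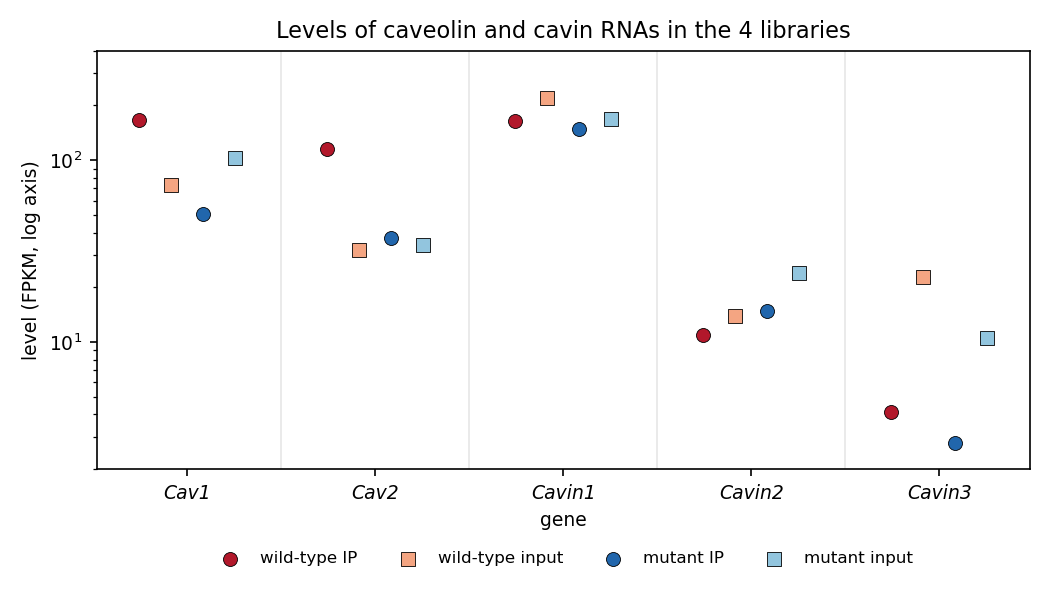
Level of each member (FPKM, log axis) by library (circles for IPs, squares for inputs, reds for the wild type, blues for the mutant), 1 point per library and no replicates. For Cav1 and Cav2 the wild-type IP point, at 166 and 115 FPKM, lies above the other 3 libraries, and for Cavin3 both IP points lie below both inputs.

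Read against the whole tables, 2 of 5 members were called higher in the wild-type IP, where 8.59% of all genes were, and 1 of 5 was called lower, where 23.3% were. In the mutant IP, 0 of 5 were called higher and 2 of 5 lower, against 6.69% and 37.8% of all genes. For Cav1 and Cav2 the log2 ratio was at least 1 higher with the wild type than with the mutant, as it was for 26.1% of genes in both tables. It was at least 1 lower for 0 members and 7.37% of genes. Cav1 was 1 of the 207 genes, 1.54%, that were called higher in the wild-type IP and lower in the mutant IP. Cavin3 was among the 15.7% called lower in both. The median over the 5 members was −0.35 with the wild type and −0.69 with the mutant, beside −0.29 and −0.61 over all genes, so the 5 together lay near the middle of both tables. The members were chosen with the ratios known, so nothing is read from their counts beyond the description.

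Because the typical gene lay below 0 in both tables, each ratio was also taken relative to the median of its table. The wild-type calls then numbered 2106 higher and 2333 lower over all genes, in place of 1268 and 3433, and the mutant calls 2570 and 3389, in place of 965 and 5448. After centring, the log2 ratio was 1.49 for Cav1 and 2.14 for Cav2 with the wild type, and −0.41 and 0.73 with the mutant. The direction of Cav1 in the mutant IP was unchanged, but it was no longer called lower. Cavin1 lay at −0.13 with the wild type and at 0.43 with the mutant, so its mutant value changed sign, and Cavin2 lay at −0.05 and −0.09. Cavin3 remained lower in both IPs, at −2.18 and −1.31.

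Ratios also differed with the length of the gene, and the members differ in length, spanning 35.1 kb for Cav1, 14.2 kb for Cavin1, 13.8 kb for Cavin2, 7.93 kb for Cav2 and 2.22 kb for Cavin3. Genes were therefore split into 10 equal classes of span, and each member was set beside its class. In the class of Cav1 the median log2 ratio was −0.12 with the wild type and −0.35 with the mutant, closer to 0 than in the class of Cavin3. In the class of Cavin3 the median log2 ratio was −0.81 with the wild type and −1.60 with the mutant, so that relative to its class it stood at −1.67 with the wild type, where 9.56% of the class lay lower, and at −0.32 with the mutant, where 39.6% did. Cav2 exceeded its class by 2.46 with the wild type and by 1.40 with the mutant, and 98.6% and 91.0% of the genes in its classes had lower ratios. Relative to genes of like span, Cav2 was thus past 2-fold in both IPs. Relative to its class Cav1 stood at 1.32 with the wild type and at −0.66 with the mutant. On this scale the difference between constructs was 1.98 for Cav1, 1.05 for Cav2, −0.56 for Cavin1, 0.03 for Cavin2 and −1.35 for Cavin3, so that Cavin3 differed by more than Cav2, in the other direction. Classes were drawn in each table apart, and Cav2 fell into class 4 with the wild type, whose median was −0.61, and into class 3 with the mutant, whose median was −1.28. With classes drawn over the genes in both tables, so that each gene had 1 class, the differences were 1.15 for Cav2 and −1.35 for Cavin3. What lies behind the relation of ratio and span was not tested.

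**Figure D2:**
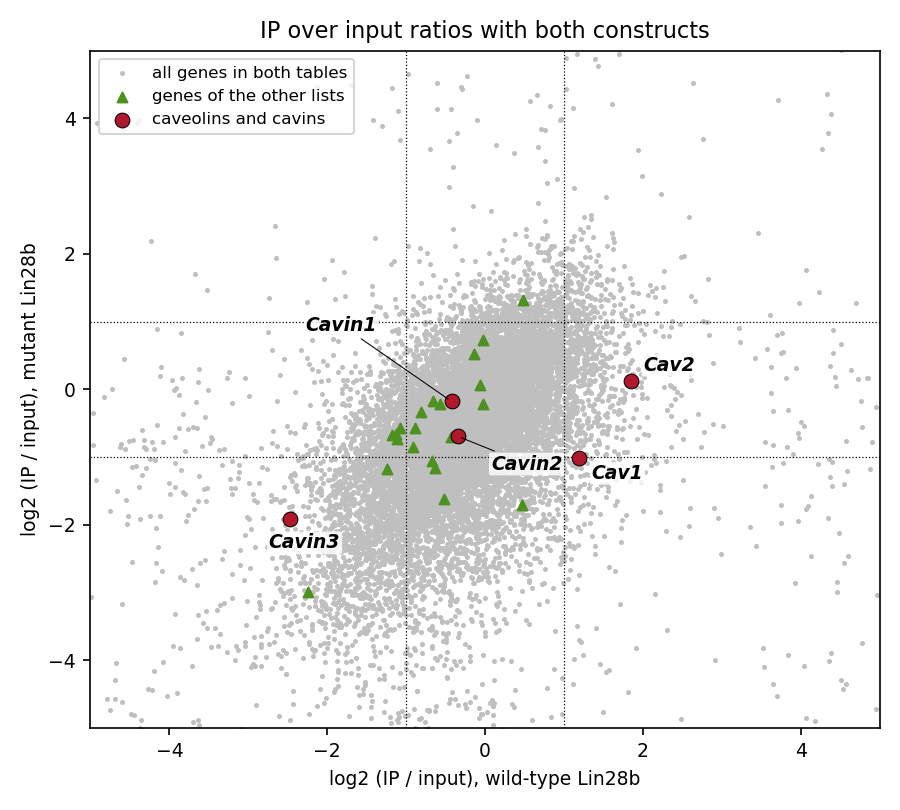
Log2 ratio of IP over input with wild-type Lin28b (x axis) and with the mutant (y axis) for 13478 genes in both tables (grey), of which 415 lie outside the axes, with the 5 members (red) and the genes of the caveola, flotillin, kinase and clathrin lists (green); dotted lines mark 2-fold. Cav1 and Cav2 lie right of the wild-type 2-fold line, Cavin1 and Cavin2 lie within the bulk of genes, and Cavin3 lies lower left.

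The make-up of the caveolin and cavin RNA differed between libraries. The 2 caveolins together held 61.1% of the summed level of the 5 members in the wild-type IP, against 29.0% in its input, and 34.6% in the mutant IP, against 40.3% in its input. In FPKM the caveolin sum was 281 in the wild-type IP against 105 in its input, and 87.9 in the mutant IP against 137 in its input. The cavin sum was 179 against 256 with the wild type and 166 against 202 with the mutant. The order of the members also differed. Cavin1 led in both inputs and in the mutant IP, whereas in the wild-type IP Cav1 and Cavin1 were nearly level. The ratio of Cav1 over Cavin1 was 1.02 there against 0.331 in its input, and 0.342 in the mutant IP against 0.611 in its input. Cav1 over Cav2 stood at 1.45 in the wild-type IP against 2.28 in its input, and at 1.36 in the mutant IP against 2.99 in its input. With either construct, Cav2 was therefore recovered better than Cav1 relative to input. Among the cavins, Cavin1 over Cavin3 stood at 39.8 in the wild-type IP against 9.57 in its input, and at 53.3 in the mutant IP against 15.9 in its input.

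**Figure D3:**
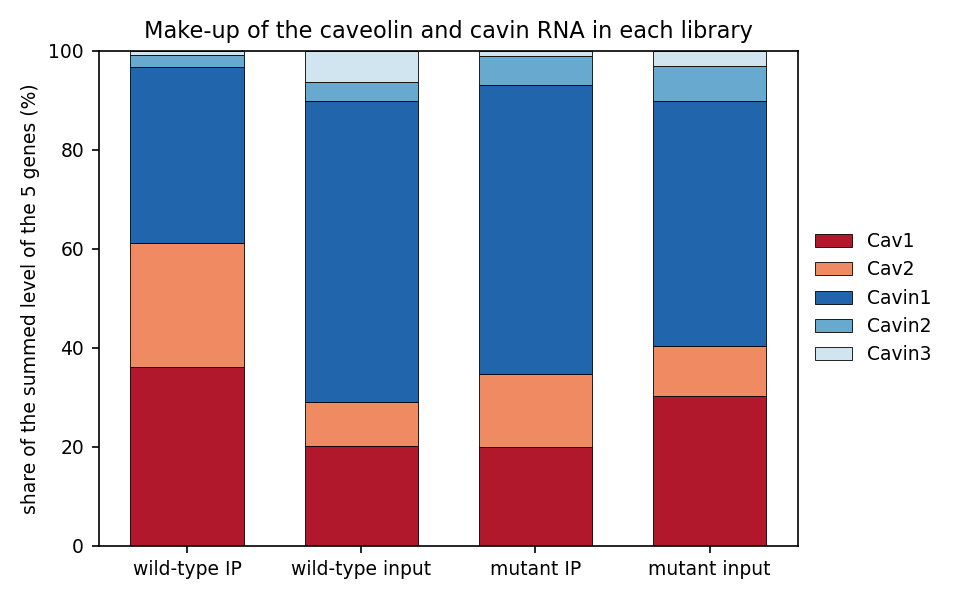
Share of the summed FPKM of the 5 members held by each gene, as 1 stacked bar per library. Cav1 and Cav2 (reds) hold 61.1% in the wild-type IP and between 29.0% and 40.3% in the other 3 libraries.

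The authors' peak lists give the stretches of these RNAs that were called as peaks in each IP. Since the labels and files do not name the control used in calling them, a peak is read here as high IP coverage and not as recovery over input. A peak was given to a gene when its summit lay inside the gene on the gene's strand. Cav1, Cav2 and Cavin1 each carried 1 peak in the wild-type list, and Cavin2 and Cavin3 carried 0 peaks in either list. In the mutant list Cav1 carried 0 peaks, Cav2 carried 1 and Cavin1 carried 2. A wild-type peak was held by 23.1% of the genes in that table, and by 48.9% of those at or above 10 FPKM in the IP. For mutant peaks the shares were 17.5% and 42.6%. No member carried a peak on the opposite strand, and no peak lay between Cav2 and Cav1.

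The wild-type peak of Cav1 (6:17338951-17341277) was 2327 bases wide and ended 175 bases before the 3′ end of the gene. The wild-type peak of Cav2 (6:17286765-17289011) was much like it, 2247 bases wide and ending 104 bases before the 3′ end. Both were wide for their list: 99.2% and 99.1% of the wild-type peaks were narrower, and the median width was 256 bases. The authors' folds at the summit were low for the list, 2.39 for Cav1 and 2.18 for Cav2, against a median of 3.77, and 18.8% and 13.9% of its peaks had lower ones. Their −log10 q-values of 75.9 and 58.6 exceeded those of 87.7% and 82.2% of the list. The summits lay toward the upstream edge of each peak, 2.19 kb from the 3′ end in Cav1 and 1.96 kb in Cav2.

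The mutant peak of Cav2 (6:17287677-17287997) was 321 bases wide and lay wholly inside the wild-type peak, of which it covered 14.3%. It was weak in its list, with an authors' fold of 1.56 and a −log10 q-value of 2.50, below which stood 2.09% of mutant peaks. The summits of the 2 Cav2 peaks were 813 bases apart. Cavin1 was the one member with more mutant than wild-type peaks, and the mutant list was also the longer, with 15931 peaks against 11912. The wild-type peak of Cavin1 (11:100957677-100957979) lay wholly inside the mutant peak 11:100957560-100958025, and the other mutant peak (11:100956860-100957166) had no wild-type counterpart. Over the whole lists, 49.6% of wild-type and 36.2% of mutant peaks overlapped a peak of the other list. A peak without a counterpart was thus the usual case in the mutant list. The authors' folds of the Cavin1 peaks were low, 1.40 in the wild-type list and 1.37 and 1.38 in the mutant list, where 0.873%, 0.308% and 0.352% of peaks had lower ones. In the same order, their −log10 q-values were 18.1, 12.5 and 11.2, above those of 43.8%, 27.1% and 24.3% of their lists.

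All 6 peaks in members had their summit within 3 kb of the 3′ end, from 0.270 kb to 2.19 kb. Of all peaks inside listed genes, 33.9% of the wild-type and 20.1% of the mutant peaks did. Exons and untranslated regions were not assigned. The sequence under the peaks was not used here, as no genome of this build was at hand, and so Lin28 motifs were not searched.

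**Figure D4:**
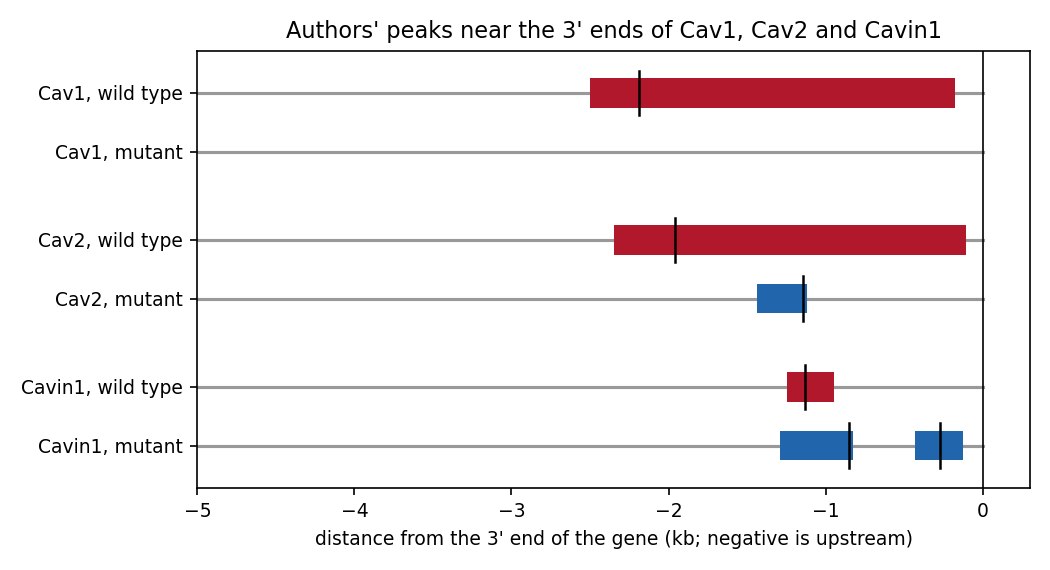
Authors' peaks (bars: wild-type red, mutant blue) along the last 5 kb of Cav1, Cav2 and Cavin1, drawn by distance from the 3′ end of the gene in kb, with black ticks at the summits. The wild-type peaks of Cav1 and Cav2 fill most of the last 2.50 kb and 2.35 kb, while the other 4 bars are under 0.5 kb wide.

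Other genes of caveolae were read from lists written out by role. Of 10 genes for the neck, coat partners and scission of caveolae, 7 were in both tables, 0 were called higher in either IP, 2 were lower with the wild type and 1 with the mutant. The list median was −0.64 with the wild type and −0.66 with the mutant. Ehd2, an ATPase of the caveola neck, had log2 ratios of −0.43 and −0.71, and Pacsin2, an F-BAR protein that shapes caveolae, had −0.14 and 0.52. The related Pacsin3 was called lower in the wild-type IP, at 7.15 FPKM against 15.4 in its input. So was Dnm1, of the dynamin family of membrane-cutting GTPases, at 2.13 FPKM against 4.69. With the mutant, Dnm1 stood at only 0.0784 FPKM in the IP against 0.129 in its input. Ehd1, an ATPase of endosomal recycling, was called lower in the mutant IP, at 17.7 FPKM against 39.6. The highest log2 ratio of this list in the wild-type IP was the −0.03 of Ehd4, of the same family.

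The flotillins Flot1 and Flot2, which mark another kind of membrane microdomain, lay below input with both constructs. Flot1 was called lower in the mutant IP, at 16.7 FPKM against 34.8. Of 5 genes for kinases and phosphatases linked to caveolin-1, 4 were in both tables and 2 were called lower in the wild-type IP. These were Src, a kinase that phosphorylates caveolin-1, at 11.8 FPKM against 25.1, and Csk, the kinase that restrains Src, at 16.5 against 37.2. Neither was called in the mutant IP. The muscle forms Cav3 and Cavin4 were not among the named genes and were not analysed here.

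Of 8 genes of clathrin and its AP-2 adaptor, the other main endocytic coat, 0 were called higher and 2 lower in the wild-type IP, and 1 higher and 4 lower in the mutant IP. Cltc, the clathrin heavy chain, stood at 156 FPKM in the wild-type IP against 111 in its input, and at 318 in the mutant IP against 128 in its input, and was the gene called higher with the mutant. The light chain Clta resembled Cav1 in direction, with 209 FPKM in the wild-type IP against 151 in its input and 27.2 in the mutant IP against 88.9 in its input. The log2 difference between constructs was 2.18 for Clta and 1.10 for the other light chain, Cltb. The AP-2 subunit genes Ap2m1 and Ap2s1 were called lower in both IPs. Over all 21 measured genes of these lists, 0 were called higher and 6 lower in the wild-type IP, 1 higher and 6 lower in the mutant IP, and the medians were −0.66 and −0.66, beside −0.29 and −0.61 over all genes. Of all genes 8.59% were called higher and 23.3% lower in the wild-type IP, and 6.69% and 37.8% in the mutant IP, so the lower calls were near or below the share in the whole tables. Relative to the median of the table, 1 of the 6 lower calls in the wild-type IP was left, that of Ap2s1, and those of Src, Csk, Dnm1, Pacsin3 and Ap2m1 were lost. In 2 of the 21, Clta and Cltb, the difference between constructs was at least 1, as it was for 26.1% of all genes.

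**Figure D5:**
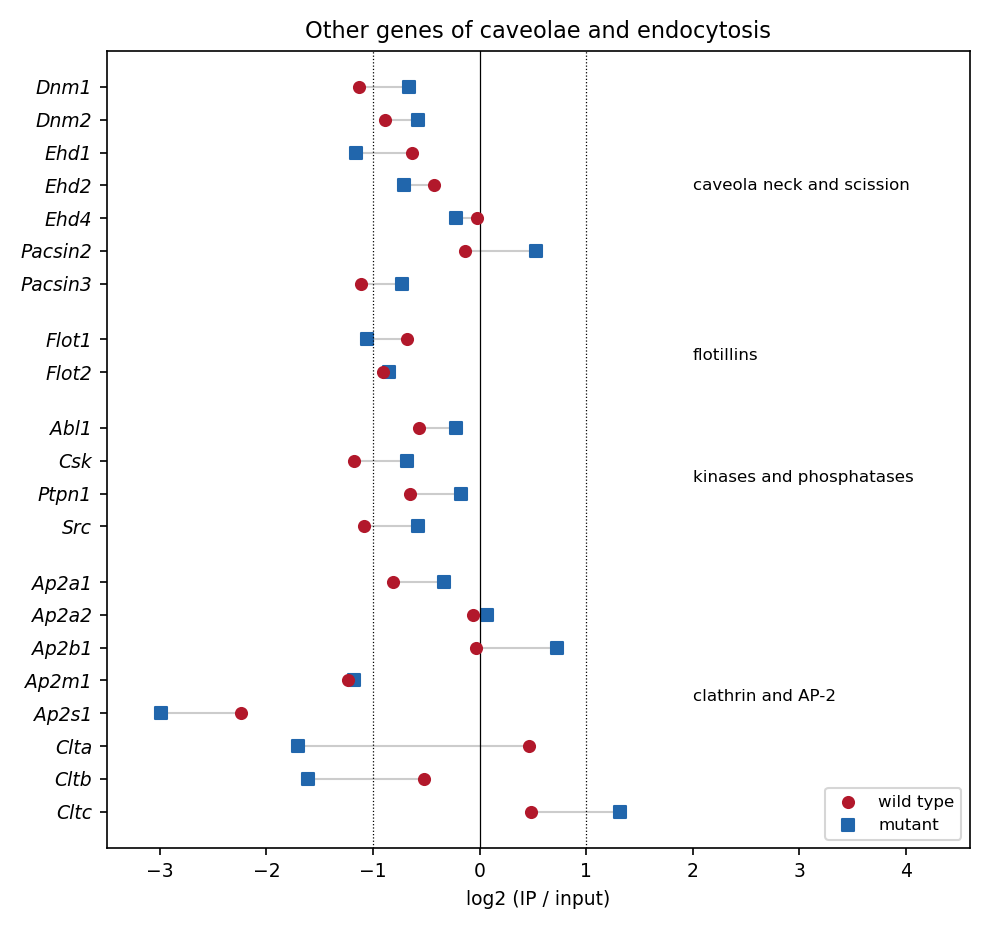
Log2 ratio of IP over input for 21 genes of the caveola neck, flotillin, kinase and clathrin lists, with the wild type as red circles and the mutant as blue squares; dotted lines mark 2-fold. No red circle lies right of the upper 2-fold line, and Clta and Cltc show the gaps between the constructs in opposite directions.

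Genes whose pattern over the 4 libraries was most like each member were sought among 10349 named protein-coding genes, by the Euclidean distance of log2 levels centred on each gene's mean. Nearest to Cav1 were Cep57, Rpn1 and Tefm, at distances of 0.112, 0.122 and 0.179. Rpn1 also shared its levels, with 167 FPKM in the wild-type IP against 76.6 in its input, and 54.0 in the mutant IP against 98.2 in its input. Nearest to Cav2 were Pls3, Tmx1 and Laptm4b, at 0.126 to 0.188. Cavin1 was closest to Maged1, Zfyve1 and Pskh1, Cavin2 to Usp39, Tctn2 and Oxnad1, and Cavin3 to Tmed3, Ptov1 and H2ac21, of which Tmed3 was at a distance of 0.0132 and Ptov1, the next, at 0.337. The members were not each other's nearest genes. Cav1 and Cav2 were 0.939 apart. Of the 10349 genes, 1109 were closer to Cav1 than Cav2 was, and 493 were closer to Cav2 than Cav1 was.

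The cells matched their label in part. Of 13 fibroblast markers, 6 were in both tables. The intermediate filament gene Vim stood at 607 and 547 FPKM in the inputs of the wild type and the mutant. Next were S100a4 (214 and 40.7), Fn1 (118 and 74.6) and Sparc (93.8 and 83.8). Pdgfra (1.33 and 0.860) and the collagen gene Col1a1 (0.722 and 0.404) were low. Of 8 epithelial markers, 6 were in both tables, and their summed input level was 2046 and 1381 FPKM, above the 1034 and 748 of the fibroblast markers. Highest among them were Krt19 (665 and 322), Krt8 (601 and 494) and Krt18 (395 and 441). Lower levels were those of Cdh1 (219 and 114), Muc1 (134 and 6.77) and Krt7 (31.7 and 3.32). Of other cell types rich in caveolae, 0 of 8 endothelial markers were among the named genes, while 2 of 7 pericyte and smooth muscle markers summed to 0.521 and 0.693 FPKM in the inputs and 2 of 6 adipocyte markers to 7.88 and 13.0. Of 6 leukocyte markers 1 was listed, at 0.704 and 2.45. The part of these markers in the levels of the members was not tested. The abundant mRNAs Actb and Gapdh had log2 ratios of −1.02 and −0.98 with the wild type and −1.64 and −1.60 with the mutant, so their ratios too were higher with the wild type.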

How the data were processed

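RNA immunoprecipitation sequencing gave 1 library in each of 4 groups, which the labels' titles assign. The submitters' processing notes name bedtools, HISAT2 2.1.0, HOMER 4.11.1 and MACS2 2.2.7.1, and GRCm38 and mm10 as builds, without saying what each was used for. Per the labels' protocols libraries were made with a stranded mRNA kit. The deposited gene tables hold levels with no unit named, read here as FPKM: in 858 processed pseudogenes the deposited p-values carried evidence that grew with gene span (Spearman rho 0.932 across genes), and column sums of 207301 to 321238 differ from those of TPM. The authors' deposited log2 ratio equals log2 of (IP + 0.01) over (input + 0.01), which was recomputed. Their q-values served in 1 alternative only. Read totals are not given and none was recovered from the low levels, so depth is unknown and no interval was computed.

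Per the file headers and layout, the deposited peak lists hold the authors' score, fold at the summit, −log10 p-value and q-value and summit distance, 1 list per IP with strands called apart; no source says whether input served as control. Symbols stood in the mutant table and were carried over by gene identifier, so genes of the wild-type table alone stayed unnamed. Peaks were shared at 1 base of overlap on 1 strand. The members and lists were chosen with earlier results of these data known. Named genes are the members, genes of the caveola, flotillin, kinase and clathrin lists past 2-fold, the 3 nearest patterns per member, Actb and Gapdh. Ehd2, Ehd4, Pacsin2, Flot2 and the markers Vim, Col1a1, Pdgfra, S100a4, Fn1, Sparc, Cdh1, Muc1, Krt7, Krt8, Krt18 and Krt19 were added after their values were seen. Scripts (Python 3.11.15, pandas 2.3.3) were checked on simulated data. Alternatives were other pseudocounts, centring, filters, call rules and peak rules.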

Additional observations from a re-analysis of the deposited data

Results flagged for a closer look

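Cav1 moved in opposite directions with the constructs, above input in the wild-type IP and below it in the mutant IP, with a log2 difference of 2.21. The clathrin light chain gene Clta had the same directions, with a difference of 2.18. Unlike Cav1, Clta was not called higher in the wild-type IP, at 1.38-fold above input. Both genes were called lower in the mutant IP, Cav1 at 2.02-fold below input and Clta at 3.27-fold. Each direction rests on 1 library against 1 input, and neither difference was tested.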

How the results depend on the processing

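No paired analysis was possible because each group had 1 library, and for the same reason no library could be left out. The 2 wild-type calls of higher members and the 1 call of a lower member kept their counts under pseudocounts of 0.1 and 1, both centrings, the added q-value rule and the filter at 1 FPKM. The 2 members with a difference of at least 1 kept their count under pseudocounts of 0.1 and 1 and both centrings, and with span classes shared by both tables, added after seeing the data. In the mutant IP, 1 member was called lower after centring on the median and 0 after centring by gene span, in place of 2, and centring by span called 1 higher (Cav2), in place of 0. It also placed 1 member (Cavin3, −1.35) at a difference of −1 or below, in place of 0, with classes drawn in each table or shared. For the 21 other list genes, median centring left 1 lower in the wild-type IP in place of 6, and 3 higher and 3 lower in the mutant IP in place of 1 and 6. These calls thus depend on the centring used, and which centring suits these data was not tested. At a peak −log10 q-value of at least 5 or 10, 3 wild-type peaks were left, and 2 mutant peaks in place of 3, without that of Cav2. On the opposite strand there were 0 wild-type and 0 mutant peaks. An overlap of 50% of the shorter peak, any overlap with the gene and, added after seeing the data, a reach of 2 kb kept the peak counts within 1.5 times.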
